A study of Mus musculus with 6 samples.

Results

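Among the features on the mouse expression array used for this series are probes whose target is a stretch of a chromosome and not a named transcript. They were chosen by one property: every non-control probe whose target name in the scanner files is a chromosome with a start and an end was taken. These were 16194 of the 55681 non-control probes (29.1%), and they stand for 3543 of the 36830 targets on the array. The samples are sorted skin cells that were positive for green fluorescence (GFP) and low in side scatter, labelled as melanocyte stem cells, which replenish the pigment cells of hair follicles. The 3 WT samples are the controls, and the 3 K14-SCF Tg samples come from mice that make stem cell factor, the KIT ligand, from a keratin 14 promoter, which is active in basal keratinocytes of the epidermis. All 6 samples come from males and share the sort. The labels give no treatment, and the sources used here do not state the strain, the age or the origin of the green fluorescence. The labels also do not say whether replicates came from separate animals, so the spread that the p-values rest on may be technical.

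Mammalian genomes give rise to many long RNAs that encode no protein. Some act in the nucleus as scaffolds of chromatin or of nuclear bodies, some regulate genes close to their own, and for most no role is known. Catalogues of such RNAs have been drawn in part from chromatin marks of active promoters and transcribed bodies, which show where a transcript lies but not which strand it comes from. They are often transcribed at lower levels than messenger RNAs and more narrowly by cell type. In the pigment lineage, as elsewhere, most of them carry no gene name.

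The intervals are given here in genome build mm9, which the scanner files name as the build of the probe design. They lie on 20 chromosomes, with 0 probes on the Y chromosome. Interval length ran from 62 to 7128487 bp, with a median of 7304 bp. The shortest, chr10:83399729-83399790, and the longest, chr7:39351858-46480344, had 1 probe each. The median number of probes per interval was 3, and 32 intervals had the maximum of 20. Each target name ends in F or R, which is taken here as the strand of the interval that the probe represents: 8171 probes carried F, 8010 carried R, and 13 probes of 3 intervals carried neither. Both suffixes occurred in 1067 intervals, which held 9682 probes, and a single suffix in 2473. Intervals with both suffixes were longer, with a median of 19201 bp against 2371 bp. The intervals are not independent of each other: 2101 of the 3543 overlapped another, and merging the overlaps left 2226 loci, of which the largest joined 14 intervals. Every interval probe was printed once per array, so that a value is the signal of 1 spot.

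A level is the log2 of a spot's processed signal over the 75th percentile of the non-control probes on the same array, so that 0 is that percentile. A spot was well above background where the scanner software set that flag. Per array, 43632 to 48517 non-control probes met it, as did 0 to 4 of the 308 negative control spots, and 0 spots were saturated. WT replicate 3 had the fewest detected probes of any class. WT replicate 1 was on a slide of its own, the other 5 arrays shared a slide, and WT replicate 3 and Tg replicate 3 lay in its second row. Of 10 melanocyte lineage genes, 9 were well above background on all 6 arrays, with levels up to 6.09, whereas Oca2, a melanosomal transport gene, was so on 0. The summed level of the fibroblast genes Col1a1, Col1a2, Col3a1, Dcn, Lum and Pdgfra, as a multiple of the 75th percentile, was 23.1 to 68.3 in WT and 8.14 to 21.7 in Tg, without overlap, and 5 of these 6 genes had a lower mean in Tg. The part of these cells in the results below was not tested. Nor can fewer cells of a type and less RNA per cell be told apart in such sorted bulk samples.

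Probes for unnamed intervals were detected about as often as probes for RefSeq mRNAs. The share well above background was 84.5%, 87.1% and 79.1% on WT arrays 1 to 3 and 86.0%, 88.6% and 85.4% on Tg arrays 1 to 3. For the 26732 mRNA probes it was 84.3%, 86.5% and 79.8% in WT and 85.5%, 87.4% and 84.5% in Tg. The difference, interval minus mRNA, thus ran from -0.71 to 1.24 percentage points, and it was negative on WT replicate 3 alone. The 1559 probes of RefSeq noncoding RNAs, which have accessions, were detected less often, at 65.1% to 77.7%. Over the 6 arrays, 11962 interval probes (73.9%) were well above background on all, against 75.4% of mRNA probes, and 910 (5.62%) on none, against 6.68% of mRNA probes. Counted by interval, 2406 had every probe detected on at least 3 arrays, 1010 had some, and 127 had none. At least 1 probe was therefore detected for 96.4% of intervals.

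**Figure D1:**
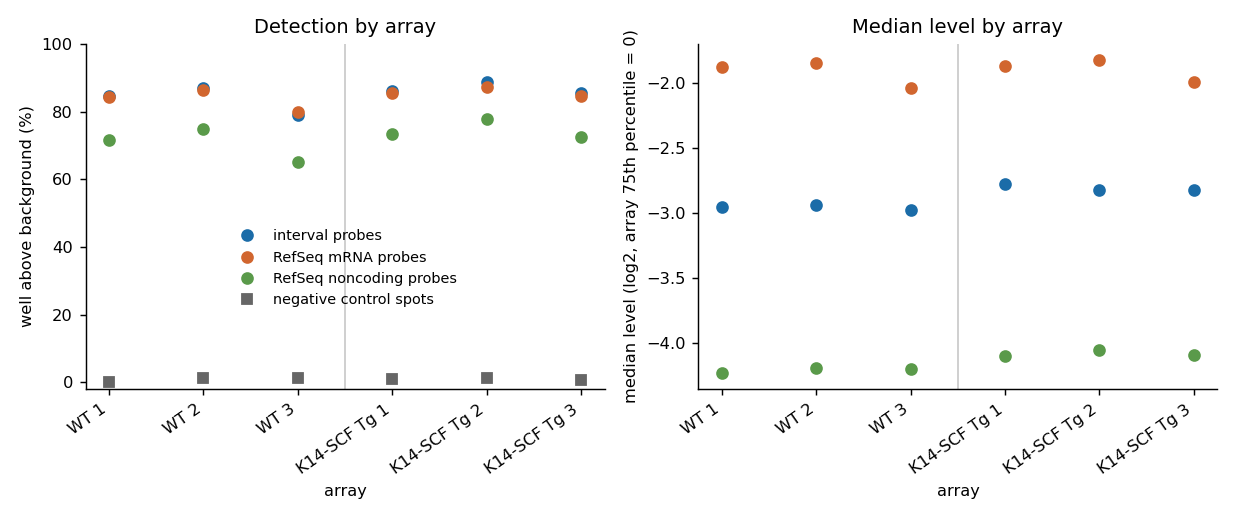
Left, the percentage of probes well above background on each of the 6 arrays for interval, RefSeq mRNA and RefSeq noncoding probes and for the negative control spots. Right, the median level of the same 3 classes (log2, 0 is the array's 75th percentile). Interval probes lie on the mRNA probes in the left panel and 0.83 to 1.09 below them in the right panel.

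Their signal was lower. The median over all interval probes was -2.96, -2.93 and -2.97 in WT and -2.78, -2.82 and -2.82 in Tg, where the mRNA medians were -1.88, -1.85, -2.04, -1.86, -1.82 and -1.99. Within an array the interval median lay 0.83 to 1.09 below the mRNA median, on all 6 arrays. Of the interval probes, 16.8% had a mean level over 0, against 29.1% of mRNA probes. The central part of the distribution was at -4.88 to -0.88 for intervals (lower and upper quartile) and at -4.69 to 0.40 for mRNAs. Signals of different probes also depend on their sequences, so these are comparisons of whole classes. Where single probes are named below for a high signal, that is a description of the signal and not an order of abundance.

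Detection was also compared by where an interval lies and how it was covered. By chromosome it ran from 82.9% of interval probes on chromosome 10 to 93.3% on chromosome 17, with 84.7% on the X chromosome, counting probes flagged on 3 or more arrays. Probes with suffix F and R were detected at 87.6% and 87.1%, and their median levels were -2.89 and -3.00. Probes of intervals with both suffixes were detected at 89.1%, against 84.8% where only one occurs. The 4 intervals taken as examples of the most densely covered show how unlike single loci are: of 20 probes each, 20 were detected at chr10:126818382-126856582, 16 at chr10:60473030-60535340, 16 at chr10:94900849-94928059 and 12 at chr11:33414450-33450750.

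The highest signals came from a few loci. Interval chr19:5801802-5802597, suffix R, had the highest mean, with 7.97, 8.13 and 8.41 in WT and 8.28, 8.19 and 8.39 in Tg. It lies with 5 others in a stretch of chromosome 19 from 5771425 to 5848475, where 26 of 27 probes were detected on all arrays and 10 had a mean level over 5. Both suffixes were strong there, with highest means of 7.88 for F, at chr19:5795690-5797464, and 8.23 for R. From general knowledge of the mouse genome, and not from the files, this stretch holds Malat1 and Neat1, abundant nuclear noncoding RNAs, of which Neat1 is the scaffold of paraspeckles. The RefSeq probes of Malat1 and Neat1 on the same arrays had mean levels of 2.21 and 4.04, as a separate measurement with other probes.

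Chr17:39960567-39992817 was the next of these loci. Its R probe read 7.24, 7.17 and 7.69 in WT and 7.36, 7.12 and 7.50 in Tg, and all 20 probes of the 5 intervals there were detected on every array, 11 of them with a mean over 5. This position is known, again not from the files, for a copy of the ribosomal RNA precursor gene, Rn45s, whose transcript is processed into the large structural RNAs of the ribosome. The other loci among the 10 strongest probes rested on fewer probes. At chr11:60728207-60745369 a single R probe of 13 exceeded 5, at 7.21. At chr14:78924115-78938125 a single F probe of 18 did, at 6.89. Chr5:125861675-125880125, suffix F, and chr6:47604919-47702924, suffix R, reached 7.25 and 6.90. None of these loci separated the genotypes at its strongest probe: the 10 differences ran up to 0.45 in size, at the chromosome 6 probe (SE 0.40), and the WT and Tg values overlapped in each. Weaker probes of some loci differed by more, with ranges of -3.67 to 0.26 at the chromosome 14 locus and -0.44 to 1.26 at the chromosome 11 locus. At the chromosome 17 locus the range was -0.38 to 0.22.

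Because 1067 intervals were covered on both strands, detection of the strands can be compared within an interval. Counting a strand as detected where at least 1 of its probes was flagged on 3 or more arrays, both were detected in 1029 intervals (96.4%), F alone in 20, R alone in 12 and neither in 6. Several probes per strand make this easy to meet. Among the 73 intervals with 1 probe on each strand, both were detected in 62, one in 8 and neither in 3. The sources used here do not say whether labelling of amplified cDNA kept the strand of the RNA, so a signal for both suffixes does not show transcription from both strands.

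Among an interval's own probes, detection on one strand alone was seen in its strictest form, on 6 arrays against 0, in 7 intervals. In chr6:28161665-28189840 all 9 F probes were well above background on 6 arrays, the highest with a mean of 1.62, and the 1 R probe, at -7.70, was so on none. In chr7:69024136-69131056 it was 5 of 5 F probes, the highest at 0.25, against 0 of 4 R probes, whose highest mean was -8.00. Chr10:83325890-83402790 had the opposite pattern, with 3 of 4 R probes on all 6 arrays, the highest at 5.72, and its 1 F probe at -7.21. The remaining 4 had 1 undetected probe each on the other suffix. Probes of overlapping intervals were not counted here. Inside the chromosome 6 example, 2 of the 3 R probes of chr6:28172545-28176170 were well above background on all 6 arrays. Inside the chromosome 10 example, so was the F probe of chr10:83399729-83399790, at -4.28.

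Probes of one interval varied together from array to array, and this held across suffixes. Likeness was taken as Pearson's r between the levels of 2 tested probes over the 6 arrays, so that each r rests on 6 points that share the same samples and scaling, and it is given as a description. Over 18984 pairs of the same suffix the median r was 0.35, and 20.8% exceeded 0.8. Over 21153 pairs of opposite suffix the median was 0.24, and 15.4% exceeded 0.8. Over 33707 pairs from neighbouring, non-overlapping loci the median was 0.02 and 3.45% exceeded 0.8. Pairs of different probes to one mRNA accession, 5528 in all, had a median of 0.33 and 17.2% over 0.8. That median was close to the same-suffix one, and the share lay between those of the same and opposite suffix. In the 154 intervals with 5 probes on each strand, all 10 tested, the probe most like a given one was of the opposite suffix for 685 of 1540 probes (44.5%), where 5 of its 9 neighbours (55.6%) were. In 206 cases a pair of opposite suffixes were each other's most alike. Detection was alike to a similar degree: 84.9% of same-suffix pairs and 84.4% of opposite pairs were both detected or both not.

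**Figure D2:**
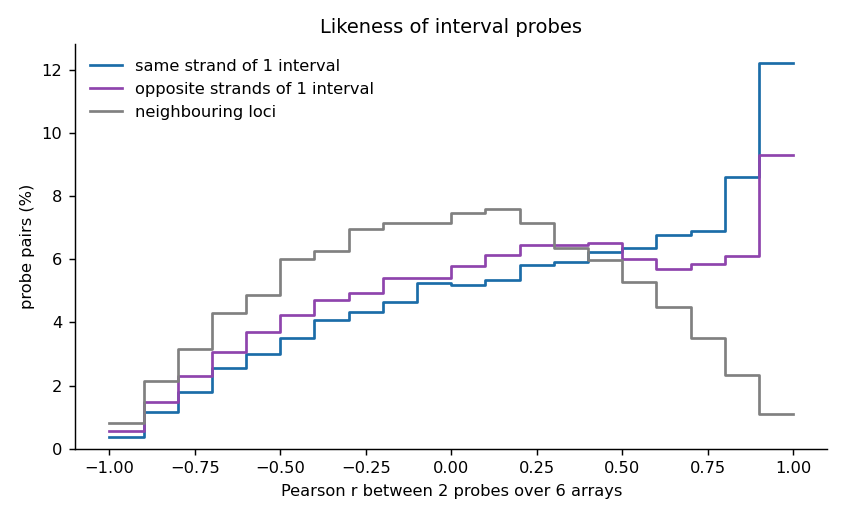
Percentage of probe pairs (y axis) by Pearson's r between the 2 probes over 6 arrays (x axis, steps of 0.1), for pairs of the same strand and of opposite strands of one interval and for pairs from neighbouring loci. Pairs within an interval pile up above 0.8, at 20.8% and 15.4%, whereas 3.45% of pairs from neighbouring loci lie there.

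The spread between replicates was widest at the lowest levels and narrowest at the highest, and the classes were close at a given level. The median SD within genotype was 0.56 for tested interval probes and 0.52 for tested mRNA probes. In bins of mean level the 2 values were 0.85 and 0.84 below -6, 0.67 and 0.68 from -6 to -4, 0.68 and 0.72 from -4 to -2, 0.57 and 0.60 from -2 to 0, 0.41 and 0.43 from 0 to 2, and 0.25 and 0.25 over 2. The correlation of whole arrays over interval probes was 0.87 to 0.88 within WT, 0.89 to 0.90 within Tg and 0.88 to 0.89 between genotypes, so that WT arrays were no more like each other than like Tg arrays. Over mRNA probes, which span a wider range of levels, it was 0.90 to 0.94.

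**Figure D3:**
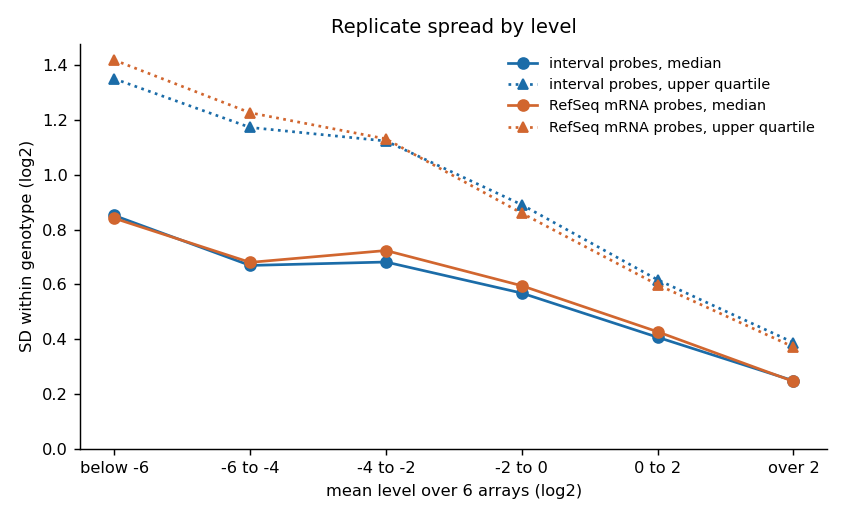
SD of the level within genotype (y axis, log2) for tested probes in 6 bins of mean level (x axis, log2). Circles are medians and triangles upper quartiles, for interval and RefSeq mRNA probes. The medians are 0.85 and 0.84 below -6 and 0.25 for both classes over 2, with no fall between the bins from -6 to -4 and from -4 to -2.

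The series compares K14-SCF Tg with WT. Levels of probes with that flag on 3 or more arrays were compared with limma. P-values were adjusted by Benjamini and Hochberg's method over the whole set of 47704 probes, and 0.05 was the threshold. Of the 16194 interval probes, 14149 passed this filter and 14148 were tested, as 1 had an outlier spot. No interval probe was called: 0 were higher and 0 lower in Tg, with a smallest adjusted p of 0.178, where among all tested probes 1, an mRNA probe, was called higher (0.0021% of all, 0.00434% of mRNA probes) and 0 lower (0.0%). At an unadjusted p under 0.05 there were 837 interval probes (5.92%), 578 of them higher (4.09%) and 259 lower (1.83%). Among all tested probes this share was 5.45%, with 3.21% higher and 2.25% lower, and among mRNA probes it was 5.52%, with 2.85% and 2.67%. The interval share is near that background. In 1497 interval probes (10.6%) the WT and Tg values did not overlap, against 10.3% of all tested probes and 10.4% of mRNA probes.

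The interval probes as a class lay slightly towards Tg under the scaling used. The median log2 fold change, Tg minus WT, was 0.062 over tested interval probes, 0.015 over all tested probes and -0.020 over mRNA probes, and it was positive in 55.8%, 51.7% and 48.0% of them. Probes without overlap split into 938 higher (6.63%) and 559 lower (3.95%), against 5.62% and 4.71% of all tested probes and 4.97% and 5.39% of mRNA probes. The direction depends on the centre chosen. With arrays centred on their medians the median fold change of interval probes was -0.023 and the split was 692 higher to 826 lower. With quantile normalization it was 0.025 with 814 higher to 714 lower, and with the 75th percentile taken over probes detected on all 6 arrays it was 0.10 with 1108 to 454. Relative to all tested probes, the interval median lay 0.048 higher under both 75th percentile scalings and median centring. These shift each array by a constant and so cannot change that value. It was 0.028 with quantile normalization and 0.021 with normexp background correction and quantile normalization.

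**Figure D4:**
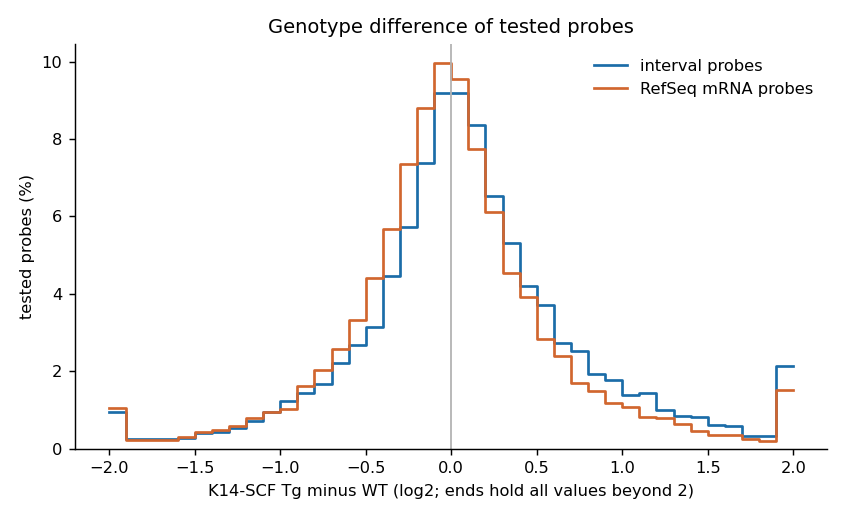
Percentage of tested probes (y axis) by the difference K14-SCF Tg minus WT (x axis, log2, steps of 0.1, the outermost steps holding all values beyond), for 14148 interval and 23028 RefSeq mRNA probes. The interval curve is displaced to the right by 0.08 at the median under the 75th percentile scaling, and the order of its higher and lower sides turns with median centring.

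The interval probes nearest to a call had higher levels in Tg. They are described with the values of each array, and none passed the threshold. A probe of chrX:165792277-165807952, suffix F, read -4.94, -4.85 and -4.83 in WT and -1.99, -1.55 and -1.89 in Tg, without overlap. Its log2 difference was 3.06 (SE 0.23, limma adjusted p = 0.178). The interval has 5 probes on each strand. All 5 F probes had positive differences, the mean being 2.16, whereas the mean of the 5 R probes differed by -0.03. This strand difference of 2.19 (SE 0.71) gave a limma adjusted p of 0.696 over the 1029 strand pairs.

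Interval chr15:38630866-38640611, of 9746 bp, held a probe that was detected in 1 genotype only. The R probe A_30_P01020866 was at -8.18, -8.61 and -7.89 in WT, above background on 0 of 3 arrays, and at -2.82, -2.16 and -3.44 in Tg, above background on 3 of 3. The fitted difference was 5.42 (SE 0.40, limma adjusted p = 0.178). The WT values lay near the negative control medians of those arrays (-8.26, -8.50 and -7.85), so this SE and p rest partly on background signal. The probe passed the filter of 3 arrays through Tg alone. It was at least 9.79-fold higher against a floor, which per WT array was either the lowest signal of any probe flagged well above background or, where higher, the signal of the probe itself. With normexp background correction and quantile normalization the difference was 2.08. The second R probe of the interval differed by 0.12 (SE 0.21), and the 3 F probes by -0.42, 0.17 and 2.25. The interval therefore did not move as one: 3 of its 5 probes lay within 0.5 of no difference.

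Detection in 1 genotype alone had a share among interval probes near that of all tested probes. Such probes passed the filter through that genotype alone. Above background on 0 WT and 3 Tg arrays were 44 interval probes (0.311%), against 0.335% of all tested and 0.282% of mRNA probes, and on 3 WT and 0 Tg arrays 9 (0.0636%), against 0.0566% and 0.0565%. After the chromosome 15 probe, those with the smallest p in the first direction had limma adjusted p of 0.415 to 0.433. They lay at chr1:6199946-6200603 (at least 2.99-fold higher in Tg), chr7:144563845-144603732 (5.35), chr6:93029101-93031007 (4.44) and chr19:46419916-46421753 (3.65), as folds of single probes. At the chromosome 7 interval 7 of 15 probes had a positive and 8 a negative difference, with a mean of 0.34 (SE 0.22). At the chromosome 19 interval 2 of 3 were positive, and at the chromosome 1 and chromosome 6 intervals all 3 were. In the other direction chr9:68349343-68411643, suffix F, read -2.79, -3.41 and -1.69 in WT and -6.58, -6.65 and -7.23 in Tg, at least 13.1-fold lower in Tg (limma adjusted p = 0.415). Of the 16 probes there, 11 had a positive and 5 a negative difference. One R probe of the interval (A_30_P01030724) also differed without overlap, by -3.92 (SE 0.85, limma adjusted p = 0.587), whereas the other 14 lay between -0.87 and 0.79. With normexp and quantile normalization the 5 fitted differences of the first direction went from between 3.22 and 5.42 to between 0.91 and 2.08, and the 5 of the other from between -4.18 and -1.99 to between -2.03 and -0.82, that of chr9:68349343-68411643 to -2.03. The least folds given here thus hold for the processed signal and not for that background correction.

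Among probes detected in both genotypes, the chromosome X probe above had the smallest p in the higher direction. Probes of other intervals were also on that list. Interval chr15:61984389-62102500 gave an R probe with -3.88, -3.41 and -3.59 in WT against -1.11, -0.74 and -1.11 in Tg. That probe differed by 2.64 (SE 0.25, limma adjusted p = 0.294), and an F probe of the interval by 3.51 (SE 0.47). At chr7:80766878-80767496, suffix R, a probe read -1.52, -1.59 and -1.49 in WT and 0.36, 0.16 and 1.07 in Tg. In this interval of 619 bp all 3 probes were higher in Tg without overlap, by 1.74 to 2.06. Chr13:78341864-78375825, by contrast, had 1 probe that differed by 2.48, and the mean over its 8 tested probes differed by 0.32 (SE 0.30).

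In the lower direction the leading probe, among those detected in both genotypes, was in chr2:128249388-128250301, suffix F. It read -0.07, -0.76 and 0.23 in WT and -2.88, -2.40 and -2.94 in Tg, a difference of -2.54 (SE 0.34, limma adjusted p = 0.415). The genotypes did not overlap. Of the 10 probes named in this direction, 3 came from one interval, chr10:8606683-8665783, with differences of -3.25, -3.03 and -2.63. The others included chr14:118774481-118873242 (-2.29), chr8:49237358-49246495 (-2.92) and chr10:62347876-62374346 (-1.52), as values of single probes. At the chromosome 14 interval the other of 2 tested probes differed by -0.17 (SE 0.41). At the chromosome 8 interval 7 of 10 probes had a positive difference, and the mean over its 9 tested probes differed by -0.13 (SE 0.39). At chr10:62347876-62374346 the 19 probes were divided, 11 with a positive and 8 with a negative difference. Of the 3 probes at the chromosome 2 interval, 2 had a negative and 1 a positive difference.

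Since most intervals have several probes, the tested probes of each interval or accession were also averaged per array and tested again, an analysis added after the single probes had been seen. Of 3416 interval means, 0 were called higher (0.0%) and 0 lower (0.0%), with a smallest adjusted p of 0.321, and 180 had an unadjusted p under 0.05 (5.27%, against 5.49% of all 31776 target means). The genotypes did not overlap in 240 interval means that were higher in Tg (7.03%, against 5.48%) and in 120 that were lower (3.51%, against 4.83%). The 8 interval means with the smallest p comprised 1 that was lower and 7 that were higher in Tg. All 8 separated the genotypes, which picking by smallest p makes likely, and none passed the threshold.

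The lower one was chr10:8606683-8665783, an interval of 59101 bp with 5 F and 5 R probes. Its mean over 8 tested probes was -1.13, -1.50 and -0.99 in WT and -3.97, -3.38 and -3.17 in Tg. The difference was -2.30 (SE 0.30, limma adjusted p = 0.321), from -1.21 ± 0.26 (SD, n = 3) to -3.51 ± 0.42 (SD, n = 3). All 10 of its probes, including 2 that were too dim to be tested, had a lower mean in Tg, with differences from -3.43 to -1.17. Of the 6 fibroblast genes given above, 5 also had a lower mean in Tg, whereas Pdgfra had a higher one. The part of these genes in this difference was not tested. The F probes differed by -2.49 on average and the R probes by -2.11, a strand difference of -0.38 (SE 0.16, limma adjusted p = 0.813).

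Among the probes of this interval, 3 pairs of opposite suffix had nearly one profile. One R probe (A_30_P01027369) read -0.69, -0.33 and -3.05 in WT and -3.36, -2.48 and -2.40 in Tg, and one F probe (A_30_P01028422) read -0.57, -0.14 and -3.39 in WT and -3.27, -2.24 and -2.10 in Tg. In both, WT replicate 3 stood with the Tg arrays. Their r was 0.987. Another such pair (A_30_P01024783, R, and A_30_P01029133, F) had its highest value on WT replicate 3, with 1.02 and -0.11, and an r of 0.993. One more pair (A_30_P01018341, R, and A_30_P01032178, F) had an r of 0.996. WT replicate 3 was thus low in one of these pairs and high in another, for both suffixes of the pair.

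Of the 7 with higher means, chr4:116790373-116797823 and chr15:61984389-62102500 had 17 probes each. At the chromosome 4 interval the mean over 17 probes was -2.50, -2.75 and -2.88 in WT and -1.08, -1.43 and -1.08 in Tg, a difference of 1.51 (SE 0.23, limma adjusted p = 0.321). All 17 had a positive difference, from 0.06 to 3.45, and 8 of them did not overlap. The 10 F probes differed by 1.72 on average and the 7 R probes by 1.22. Chr15:61984389-62102500 had 14 of 17 probes positive and a mean difference of 1.54 (SE 0.25). The others were short or thinly covered. At chr1:15837503-15838648 the difference was 1.60 (SE 0.23), at chr6:93029101-93031007 it was 2.37 (SE 0.35), at chr7:80766878-80767496 1.92 (SE 0.29) and at chr8:86706637-86707004 1.96 (SE 0.33), each over 3 probes. The chromosome 6 mean includes a probe that WT arrays did not detect, and its 1 probe detected on all 6 arrays differed by 1.23 (SE 0.29). With normexp and quantile normalization the chromosome 6 value was 0.93, that of chr15:61984389-62102500 was 0.92 and that of chr8:86706637-86707004 was 1.22. The mean of chr15:38630866-38640611, 1.51 (SE 0.23), was 0.74 in that setting and 0.53 without the probe that WT arrays did not detect.

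**Figure D5:**
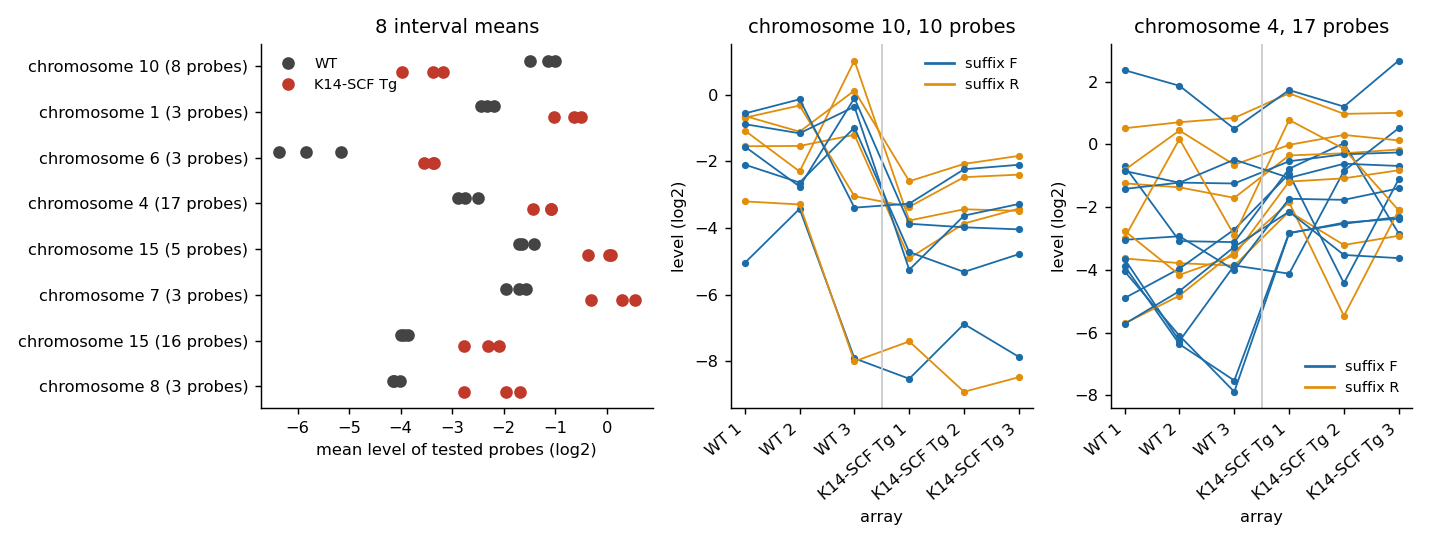
Left, the mean level of the tested probes (x axis, log2) of the 8 interval means with the smallest p, with 1 point per array for WT and K14-SCF Tg. Middle and right, the level of every probe (y axis, log2) on each array for the chromosome 10 interval, where all 10 probes have a lower mean in Tg, and the chromosome 4 interval, where all 17 have a higher mean in Tg. Lines join the values of 1 probe, and colours mark its suffix.

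The effect of genotype on the balance of the strands was tested per interval as the difference of mean F and mean R levels. Of 1029 pairs 0 were called (smallest limma adjusted p = 0.343), and 63 had an unadjusted p under 0.05 (6.12%). The smallest p was at chr15:38630866-38640611, where F differed by 0.67 and R by 2.77 between genotypes, a strand difference of -2.10 (SE 0.28), which rests on the 1 R probe described above. Chr3:40439525-40509975 followed, with -1.52 for 4 F probes and -0.10 for 5 R probes. At chr9:75316023-75344401, with 10 probes on each strand, F differed by -1.15 and R by 0.52 (strand difference -1.66, SE 0.36, limma adjusted p = 0.511).

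Overlapping intervals did not always share a direction. In a stretch of chromosome 6, 3 intervals overlap: chr6:28161665-28189840, whose own 1 R probe was not detected, and chr6:28164118-28165468 and chr6:28172545-28176170 inside it. Its own 9 tested F probes had a mean difference of 0.31 (SE 0.26). The 3 F probes of the first inner interval had lower means in Tg, with a mean difference of -1.78 (SE 0.40, limma adjusted p = 0.605), and its leading probe differed by -2.80 (SE 0.47). The 3 R probes of the other had higher means, with a difference of 1.46 on average (SE 0.66, limma adjusted p = 0.928). None of the 3 was called, and this locus was singled out after its values had been seen.

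The 2 arrays of the second slide row, WT replicate 3 and Tg replicate 3, stood apart from the other 4 in some of these probes. Slide row cannot be told apart here from these 2 samples. Among interval probes detected on all 6 arrays, the 2 arrays of the second slide row, 1 of each genotype, were both above the other 4 in 12.4% and both below in 6.13%, against 13.5% and 11.1% of mRNA probes. The largest such difference, at chr5:92548501-92566401, suffix R, was 4.40: the second-row arrays read -0.84 and 1.06, and the others -3.86, -5.73, -5.77 and -1.79. As the row holds both genotypes, it does not separate them.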

How the data were processed

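Per the labels' protocols, RNA of sorted cells was column-purified, and cDNA (0.5 µg) made from it was amplified and received 1 dye, Cy3. Agilent Feature Extraction 10.7.1.1 quantified the spots, per the file headers and the submitters' processing notes, and the probe design refers to mm9. Per the file headers, intensity is the processed signal of a spot, background-subtracted and detrended within its array. The flags are those of the deposited files. The value table deposited by the authors holds a linear ratio: a column is the processed signal over a constant that differs by array (1405 to 1678), for at least 99.99% of values within 0.2%. Its column medians were 0.170, 0.177 and 0.169 for WT and 0.184, 0.188 and 0.176 for Tg. The sources used here do not define the constant.

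Control and outlier spots were left out. Levels are log2 of the processed signal minus log2 of the array's 75th percentile, spots of a probe being averaged. Probes that were flagged well above background on 3 or more of the 6 arrays were tested with limma 3.58.1 in R 4.3.3 (lmFit, eBayes, 2-sided, no covariates, Benjamini-Hochberg adjustment over all tested probes). The fits were tested on simulated data. Replicate numbers were not taken as pairs, since the correlations of same-numbered deviations were 0.02, 0.05 and 0.13. Alternatives covered scaling, background correction, filters, slide and row, variance model, array weights, a replicate block and leaving out each array. The rule for named probes took, per direction, the 10 with the smallest p among those without overlap and detected in both genotypes, and 5 detected in 1 genotype. It added the 10 with the highest means, strand pairs, and the probes in which the second-row arrays differed most from the others. The longest, shortest and most densely covered intervals were also added. Not all are printed, and chromosome 18 intervals are counted but not named. The members, lists and rules were chosen with earlier results of these data known. The number of arrays limits the precision.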

Additional observations from a re-analysis of the deposited data

How the results depend on the processing

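Under every alternative, limma called 0 interval probes, 0 interval means and 0 strand pairs, also at an adjusted p under 0.10 for the probes, and the interval probes at an unadjusted p under 0.05 numbered 730 to 1009. The 30 named interval probes and the 8 leading interval means kept their direction wherever they were refitted (558 and 152 values). This is no support for them, since they had been picked from these data and separated the genotypes. Leaving out arrays could therefore not reverse a difference, and the slide row covariate and the replicate block left it unchanged. The median log2 fold change of tested interval probes, 0.062, was 0.025 with quantile normalization, -0.023 with median centring, 0.10 with the 75th percentile over probes detected on all 6 arrays, 0.016 with normexp and quantile normalization, 0.046 within the slide that holds both genotypes, and 0.043 to 0.087 without each array in turn. The interval probes without overlap, 1497, became 2863 within that slide, 5027 within slide row 1 and 2662 to 3241 without each array in turn, where fewer samples have to be separated. With a replicate block, which is not supported by the pairing check, 1009 interval probes had an unadjusted p under 0.05 and 0 were called.

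With the weaker flag for a signal significantly above background, the mean share detected was 95.3% of interval and 94.7% of mRNA probes. Counted by target, 95.7% of intervals had a detected probe, 10.3 percentage points above mRNA accessions, which have fewer probes each. Without each array in turn the difference by probe was 0.29 to 0.68 points. Strand pairs with 1 strand detected, 32, became 62 when all 6 arrays were required, 11 with at least 1 array and 9 with the weaker flag, and those with neither, 6, became 20, 1 and 0. The median SD within genotype of interval probes was 0.50 for probes detected on all 6 arrays and 0.51 to 0.55 without each array in turn, and that of mRNA probes 0.47 to 0.51. The median level of interval probes was -0.45 with median centring, -2.46 over tested probes, an alternative chosen after seeing the data, -1.91 over those detected on all 6 arrays and -2.96 to -2.92 without each array in turn. By signal, the median SD of interval probes was 0.85 below a level of -6, where 283 of the tested ones lay, and 0.25 over 2.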
